A study of Mus musculus with 6 samples.

Results

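The genes that guide growing axons, taken as the semaphorins, plexins, neuropilins, Slits, Robos, netrins, Unc5 receptors, Dcc, ephrins and Eph receptors, were followed in 6 single-cell RNA libraries of mouse neural tube organoids. The members were all symbols of these families that stand in both deposited gene lists, 66 of 17296 symbols in all. They are 20 semaphorins, 8 plexins, 2 neuropilins, 3 Slits, 4 Robos, 3 netrins, 4 Unc5 receptors, Dcc, 5 ephrin-A and 3 ephrin-B ligands, 8 EphA and 5 EphB receptors. The organoids were grown in Matrigel from 1 line of mouse embryonic stem cells that carries the reporters Sox1::eGFP and Bra::mCherry, in bFGF and activin-A until day 3 and in N2B27 medium without them afterwards. All libraries share this line and treatment, and each condition pooled 100 organoids, so no value belongs to a single organoid. The groups were non-elongated organoids at day 6 (1 library), and elongated organoids at day 6 (2 libraries, from different batches), day 7, day 8 and day 10 (1 library each). Organoids kept beyond day 6 had been moved to fresh Matrigel, 1 to a drop.

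Axon guidance works through short lists of ligands and receptors that turn a growth cone towards or away from a source. Netrin attracts axons through Dcc and repels them through Unc5 receptors, and in the embryonic spinal cord it draws commissural axons of dorsal interneurons to the floor plate. Slit proteins repel through Robo1 and Robo2, while Robo3 lets commissural axons approach and cross the midline. Semaphorins signal through plexins, with neuropilins as co-receptors for the secreted class, and ephrins bind Eph receptors on touching cells, where they also keep early tissue compartments apart. Many of these genes are used before any axon forms, in epiblast, neuroepithelium and neural crest.

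The libraries held 2076 to 3677 cells and 74072752 to 152742819 UMIs (counted RNA molecules), and any 2 libraries shared 1 to 4 cell barcodes. UMIs were summed over the cells of a library and are given as CPM (UMIs relative to a common library total, scaled between libraries by the TMM method). Only elongated day 6 had duplicates, and these differ in batch and in the deposited table they came from, so the spread that every test uses holds both differences. In a library sum, more cells of a type and more RNA per cell cannot be told apart. Neuron markers (11 genes) summed to 158 CPM in non-elongated organoids, 239 and 229 CPM in the elongated day 6 duplicates, 190 CPM at day 7, 1025 CPM at day 8 and 3382 CPM at day 10. Epiblast markers (5 measured of 6 listed) summed to 487, 207, 212, 33.7, 16.2 and 8.91 CPM in the same order, and epithelial markers (8 genes) to 1000, 282, 152, 47.2, 14.1 and 15.4 CPM. Genes of the dissociation stress response (6 genes) summed to 894 to 934 CPM in the 3 day 6 libraries and 173 to 224 CPM in the later ones. Endothelial markers (4 measured of 6) reached at most 10.5 CPM. In the elongated libraries the endothelial sum stayed at 2.18 to 3.86 CPM. The other sums differ between the days compared below, the neuron sum being lower at day 7 than at day 6. The part of these levels in the results was not tested.

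The stretches before the start sites of a few members are shown because these genes turn up repeatedly in the results: Robo3 and Slit2 among those that rose by day 10, Epha10 as a receptor that rose and holds a searched motif, and Epha2 among those that fell. They are the 250 bases upstream of the RefSeq start on build GRCm38.p6, in the direction of transcription, with matches to any of 4 motifs in capitals. The RefSeq start differs from the first base of the GENCODE gene model used for gene positions: it lies 886 bases inside that model for Epha10, 71 for Robo3 and 17 for Slit2, so the whole Epha10 stretch falls within the GENCODE gene. The motifs were CAGCTG and CAGATG, which neuronal bHLH factors can bind, TATAAA and the cAMP response element TGACGTCA, each searched on both strands. TATAAA and TGACGTCA were added after these stretches had been read. No 2 of the matches overlap.
Robo3, chr9:37433176-37433425, minus strand: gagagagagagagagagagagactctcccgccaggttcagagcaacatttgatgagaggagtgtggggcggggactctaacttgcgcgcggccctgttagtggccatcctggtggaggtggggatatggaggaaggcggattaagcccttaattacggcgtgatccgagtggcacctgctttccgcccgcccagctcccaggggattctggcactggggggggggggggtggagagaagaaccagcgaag
Epha10, chr4:124881535-124881784, plus strand: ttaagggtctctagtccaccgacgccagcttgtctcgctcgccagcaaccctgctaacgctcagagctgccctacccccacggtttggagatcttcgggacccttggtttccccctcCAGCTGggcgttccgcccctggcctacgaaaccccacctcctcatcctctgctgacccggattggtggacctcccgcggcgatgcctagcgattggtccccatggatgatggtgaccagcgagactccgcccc
Slit2, chr5:47982905-47983154, plus strand: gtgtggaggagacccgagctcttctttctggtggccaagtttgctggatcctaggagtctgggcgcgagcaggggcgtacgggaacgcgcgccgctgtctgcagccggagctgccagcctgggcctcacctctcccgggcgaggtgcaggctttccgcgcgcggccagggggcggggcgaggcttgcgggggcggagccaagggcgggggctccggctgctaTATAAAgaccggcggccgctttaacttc
Epha2, chr4:141300971-141301220, plus strand: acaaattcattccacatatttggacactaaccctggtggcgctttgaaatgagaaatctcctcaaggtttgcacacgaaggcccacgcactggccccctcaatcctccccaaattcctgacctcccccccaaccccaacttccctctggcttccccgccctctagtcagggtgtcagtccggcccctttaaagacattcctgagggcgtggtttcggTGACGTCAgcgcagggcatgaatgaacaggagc
CAGCTG was found in 10 of the 56 members with a RefSeq promoter entry (17.9%), in 5 of the 21 such members that were higher at day 10 (23.8%), and in 13.0% of all 32851 promoter stretches of that length. CAGATG was in 4 of 56 members (7.14%), in 0 of the 21 that were higher at day 10, and in 14.4% of all promoters. TATAAA was in Slit2 and Efnb2 alone (3.57% of members, 12.4% of all promoters), and TGACGTCA in Epha2 alone (1.79% of members, 1.55% of all). The stretch of Robo3 held none of the 4 motifs.

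Guidance genes moved mainly upwards as the organoids aged. All 66 passed the filter on low counts and were tested. At day 7, 10 members were higher and 6 lower than in elongated day 6 organoids (edgeR quasi-likelihood test, Benjamini-Hochberg adjusted p at most 0.05 over all 16379 genes), where 1.9% of all genes were higher and 2.09% lower, 3.99% in all. At day 8, 17 were higher and 6 lower, against a background of 6.74% higher and 6.64% lower (13.4% in all). At day 10, 27 were higher and 5 lower, against 14.1% and 12.3% of all genes (26.4% in all), and the median log2 change was 0.94 over the members and -0.01 over all genes tested. Scaled by library totals alone, 10 members were higher and 3 lower at day 7 (3.72% of all genes called) and 30 and 4 at day 10 (26.7%), where the split of all called genes moved to 2991 higher of 4373, against 2302 of 4320 with TMM. The 3 comparisons share the day 6 duplicates. On each of the 3 days, 8 members were higher and 3 lower, and 10 were higher at day 10 alone. Robo3 was the 1 member called in both directions. A fit of a straight line over the elongated days called 18 members rising and 2 falling (23.1% of all genes called, 10.7% rising and 12.4% falling). The count of 20 was 11 without day 6 replicate 1 (9.98% of all genes called), 4 without replicate 2 (2.67%), 19 without day 7 (18.5%), 13 without day 8 (14.3%) and 14 without day 10 (9.98%), so the share of all genes called fell as well. Of the 14 calls without day 10, 7 were among the 20. Epha10, Plxna4 and Robo1 were called rising whichever elongated library was left out.

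**Figure D1:**
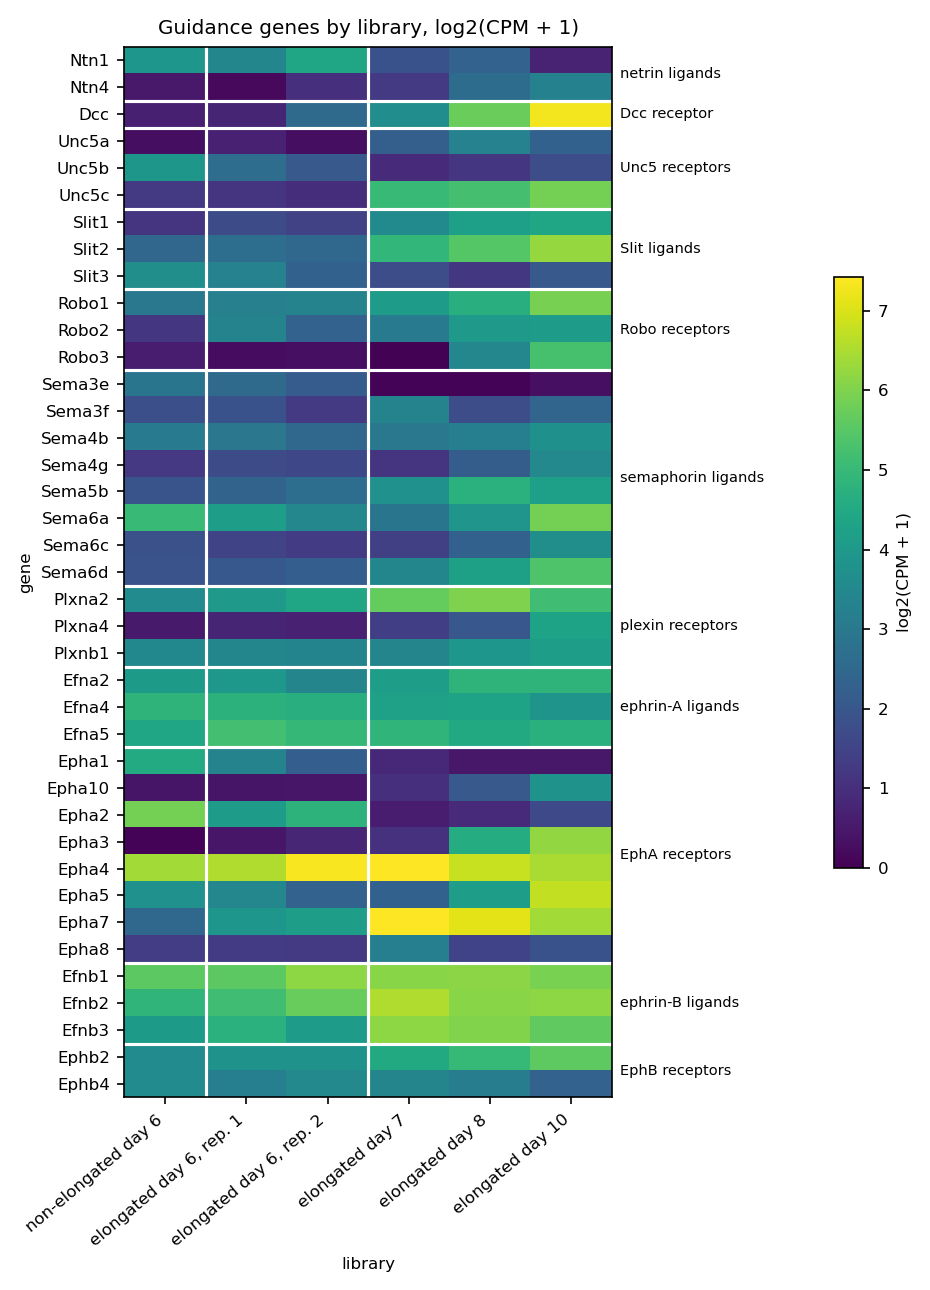
Levels of the 39 members named in the text, as log2(CPM + 1), with genes in rows ordered by family and the 6 libraries in columns. Dcc, Robo1, Slit2, Unc5c, Epha3 and Epha5 brighten towards day 10, while Sema3e, Epha1, Epha2 and Ntn1 darken after day 6.

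Among the netrins and their receptors, the receptor Dcc rose and the ligand Ntn1 fell. Dcc, the attractive netrin receptor (chr18:71253634-72351069, minus strand, build GRCm38), had 0.563 CPM in non-elongated organoids, and in elongated organoids 0.698 and 4.90 CPM at day 6, 11.5 CPM at day 7, 52.2 CPM at day 8 and 157 CPM at day 10. Each later day lay above both duplicates, which themselves were over 2-fold apart. The log2 change was 5.78 ± 0.87 (SE) at day 10 (edgeR adjusted p = 0.0035) and 4.20 ± 0.82 at day 8 (edgeR adjusted p = 0.016); DESeq2 did not call day 8 (adjusted p = 0.068). Ntn1, the secreted netrin of the floor plate, had 13.8 CPM in non-elongated organoids and 9.65 and 20.1 CPM at day 6, 2.63 CPM at day 7, 4.09 CPM at day 8 and 0.630 CPM at day 10 in elongated ones. It was below both duplicates on every later day, with a log2 change of -4.56 ± 0.61 at day 10 (edgeR adjusted p = 0.0021). Day 8 did not pass (edgeR adjusted p = 0.051), though it was called by DESeq2 and with RLE scaling (size factors of the kind DESeq2 uses). The day 7 call was lost with library totals alone, without the low-count filter and within neural progenitor classes (not the same classes in both tables, as listed below). Ntn4, a netrin found mainly in basement membranes, had 0.433 CPM in non-elongated organoids and 0.151, 1.03, 1.39, 5.14 and 8.56 CPM through the elongated libraries in order of day, and rose by 3.81 ± 0.83 at day 10 (edgeR adjusted p = 0.015). Against replicate 1 alone the day 10 changes were 7.77 for Dcc, -3.90 for Ntn1 and 5.66 for Ntn4. Replicate 2, from the same table as day 10, lay above replicate 1 by 2.78, 1.06 and 2.62 on the log2 scale. Against replicate 2 the rises of Dcc and Ntn4 were thus smaller by that much, and the fall of Ntn1 larger.

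The repulsive netrin receptors parted. Unc5c (chr3:141465216-141834924, plus strand) had 1.41 CPM in non-elongated organoids and 1.15 and 0.969 CPM at day 6, 31.9 CPM at day 7, 36.5 CPM at day 8 and 57.4 CPM at day 10 in elongated ones. All 3 later libraries stood far above the day 6 libraries, and its log2 change was already 4.92 ± 0.31 at day 7 (edgeR adjusted p = 0.0029) and 5.76 ± 0.32 at day 10 (edgeR adjusted p = 9.3e-05). Unc5a had 0.217 CPM in non-elongated organoids and 0.616, 0.205, 3.76, 8.78 and 3.99 CPM through the elongated libraries, and was called higher on all 3 days, with a day 10 change of 4.16 against replicate 2 alone and 2.66 against replicate 1. Unc5b went the other way, with 14.4 CPM in non-elongated organoids and 5.27, 3.24, 0.896, 1.27 and 2.40 CPM through the elongated libraries. It was lower at day 7 (log2 change -2.24 ± 0.48, edgeR adjusted p = 0.046) and day 8 (edgeR adjusted p = 0.047), and day 10 did not pass (edgeR adjusted p = 0.20). Both Unc5b calls were lost with library totals alone, without the low-count filter and within neural progenitor classes, and the day 7 call of Unc5a within neural progenitor classes. Unc5d was higher at day 10 with 2.33 CPM, and Ntn5 reached at most 0.303 CPM in any library.

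Slit1 and Slit2 were higher on all 3 later days and Robo1 and Robo3 at days 8 and 10, while Slit3 was lower at day 8 and Robo3 at day 7, and Robo2 was not called by edgeR. Slit2 (chr5:47983138-48307733, plus strand) had 4.49 CPM in non-elongated organoids and 5.45 and 4.57 CPM at day 6, 29.2 CPM at day 7, 43.6 CPM at day 8 and 75.0 CPM at day 10 in elongated ones. Its day 6 values lay close together and every later value was higher, by a log2 change of 2.54 ± 0.28 at day 7 and 3.90 ± 0.28 at day 10 (edgeR adjusted p = 0.0050 and 0.00021). Slit1 had 1.17 CPM in non-elongated organoids and 2.34, 1.78, 10.7, 17.1 and 19.7 CPM through the elongated libraries, a rise of 3.26 ± 0.34 by day 10 (edgeR adjusted p = 0.00078). Slit3 had 11.8 CPM in non-elongated organoids and 8.80, 4.0, 2.38, 1.32 and 3.19 CPM through the elongated ones, and was called at day 8 alone, as lower (log2 change -2.27 ± 0.56, edgeR adjusted p = 0.037, and -1.59 against replicate 2 alone).

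Robo1, a receptor for Slits on commissural and other axons, had 6.86 CPM in non-elongated organoids and 8.46 and 9.02 CPM at day 6, 16 CPM at day 7, 24.4 CPM at day 8 and 58.7 CPM at day 10 in elongated ones. Its levels climbed at each step, by 2.75 ± 0.29 on the log2 scale at day 10 (edgeR adjusted p = 0.00079), and the day 8 call was lost within neural progenitor classes. Robo3, the receptor that marks commissural axons before they cross the midline (chr9:37415669-37433246, minus strand), had 0.520 CPM in non-elongated organoids and 0.178 and 0.248 CPM at day 6, 0.0222 CPM at day 7, 9.87 CPM at day 8 and 37.8 CPM at day 10 in elongated ones. Day 7 held 3 UMIs, against 13 and 35 UMIs in the day 6 duplicates, and was called lower (edgeR adjusted p = 0.030), a call lost within neural progenitor classes. Day 8 and day 10 were the only libraries above 1 CPM, and the log2 change was 5.50 ± 0.38 at day 8 and 7.44 ± 0.40 at day 10 (edgeR adjusted p = 0.00038 and 9.3e-05). Robo2 had 1.27 CPM in non-elongated organoids and 9.09, 4.05, 7.59, 14.9 and 15.8 CPM through the elongated ones, and was not called by edgeR (adjusted p = 0.084 at day 10), while DESeq2 called it rising in the line over days. Robo4, known from endothelium, was called higher at day 10 at 0.300 CPM, a call lost without the low-count filter, within neural progenitor classes and under DESeq2.

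**Figure D2:**
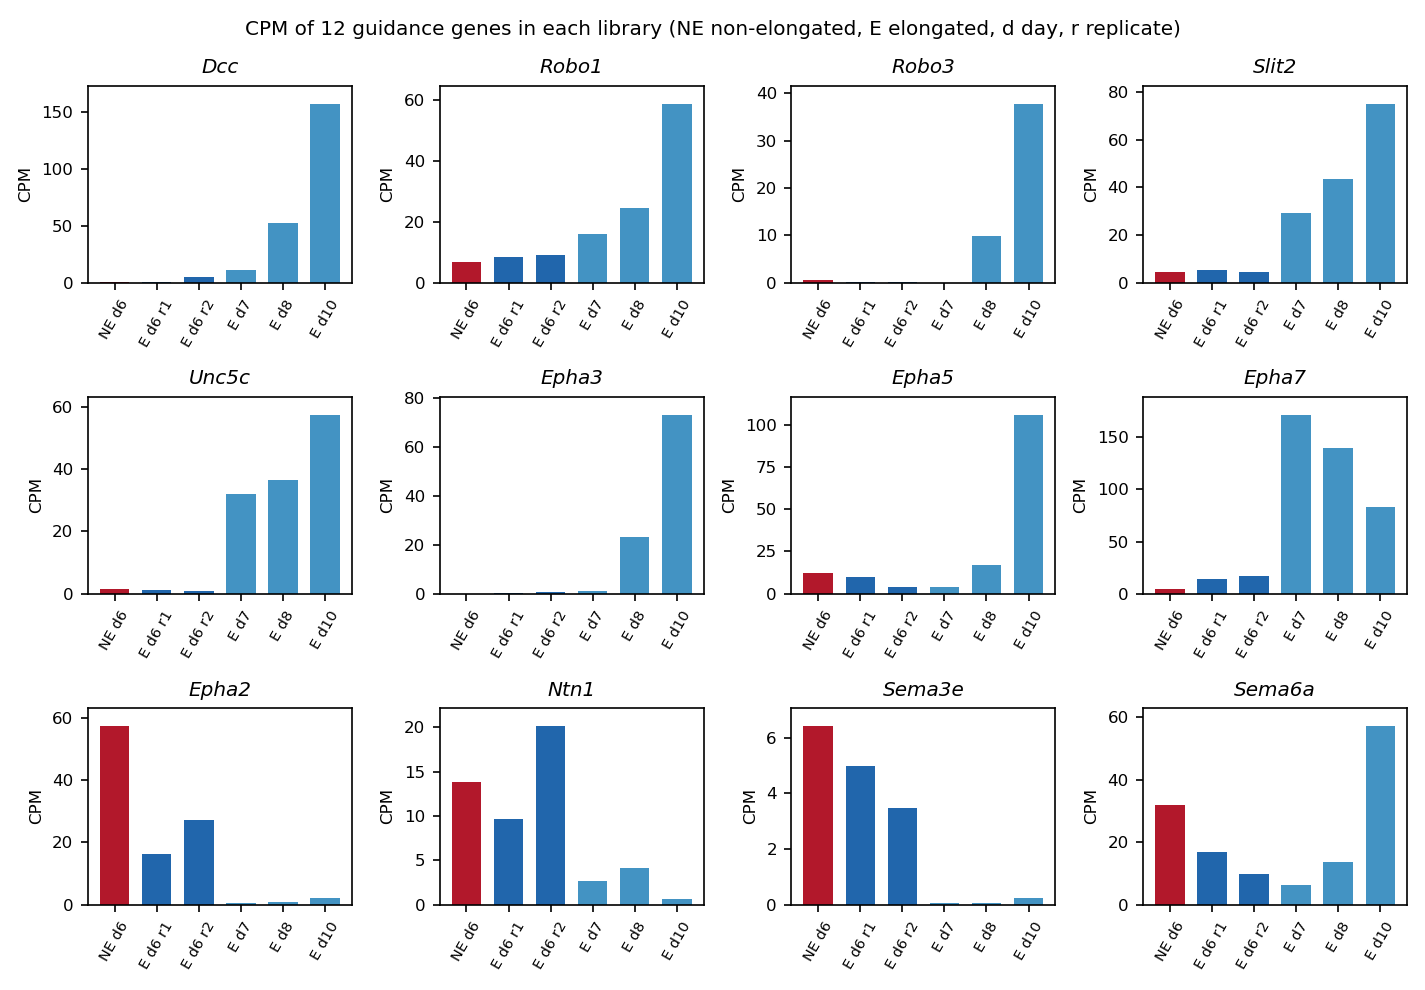
CPM of 12 guidance genes in each library, 1 bar per library, with non-elongated day 6 in red and elongated libraries in blue. Dcc, Robo3, Epha3 and Epha5 are highest at day 10, Epha7 at day 7 (171 CPM), and Epha2, Ntn1 and Sema3e are below 5 CPM in all later libraries.

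Of the 20 semaphorins, 8 were higher and 1 lower at day 10. All 4 measured members of the transmembrane class 6 were called higher at day 10 by edgeR, Sema6b with a call lost under DESeq2 and within neural progenitor classes. Sema6d, a ligand of class A plexins, had 2.73 CPM in non-elongated organoids and 3.16, 3.69, 9.58, 17.8 and 40.9 CPM through the elongated libraries. Its rise was 3.57 ± 0.32 on the log2 scale at day 10 (edgeR adjusted p = 0.00044), and it was called higher on each day, at day 7 not without the low-count filter nor within neural progenitor classes. Sema6a had 32.0 CPM in non-elongated organoids and 16.9, 9.77, 6.43, 13.5 and 57.3 CPM through the elongated ones. It was thus at its lowest at day 7, and higher at day 10 (2.11 ± 0.37, edgeR adjusted p = 0.0064). Sema6c had 2.56 CPM in non-elongated organoids and 1.88, 1.44, 1.63, 3.93 and 11.8 CPM through the elongated libraries, and Sema6b reached 2.29 CPM at day 10. Both were called higher at day 10 (edgeR adjusted p = 0.0021 and 0.037). Sema5b, which has thrombospondin repeats, had 2.83 CPM in non-elongated organoids and 4.13, 5.39, 12.6, 25.7 and 17.3 CPM through the elongated ones, highest at day 8 (2.43 ± 0.33, edgeR adjusted p = 0.0041). Sema4g had 1.33 CPM in non-elongated organoids and 2.29, 2.06, 1.18, 3.53 and 10.4 CPM through the elongated ones, and rose by 2.25 ± 0.37 at day 10 (edgeR adjusted p = 0.0052). Sema3d and Sema7a complete the 8 that were higher at day 10, at 1.21 and 3.50 CPM. The day 10 calls of Sema4g and Sema7a were lost within neural progenitor classes, and that of Sema3d under DESeq2.

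The secreted Sema3e, a ligand of Plxnd1, went down at once: it had 6.42 CPM in non-elongated organoids and 4.97, 3.47, 0.0592, 0.0504 and 0.240 CPM through the elongated libraries. The 3 later values lay below every day 6 value, with log2 changes of -6.13 ± 0.67 at day 7 and -4.13 ± 0.58 at day 10 (edgeR adjusted p = 0.0050 and 0.0027). Sema3f had 2.54 CPM in non-elongated organoids and 2.70, 1.39, 8.93, 2.40 and 4.38 CPM through the elongated ones, and was higher at day 7 alone (edgeR adjusted p = 0.050), a call lost without the low-count filter and within neural progenitor classes. With TMM scaling Sema4b was called by edgeR only in the line over days, at 7.48 CPM in non-elongated organoids and 6.74, 4.66, 6.80, 8.29 and 12.3 CPM through the elongated ones (edgeR adjusted p = 0.045). This call was lost whichever elongated library was left out, and within neural progenitor classes. RLE scaling and library totals alone also called Sema4b at day 10.

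Of the 8 plexins, Plxna4 and Plxna2 rose. Plxna4, a receptor of class 3 and class 6 semaphorins in sensory and spinal neurons, had 0.462 CPM in non-elongated organoids and 0.698, 0.594, 1.61, 3.07 and 18.7 CPM through the elongated libraries. It climbed at every step after day 6, by 4.86 ± 0.38 on the log2 scale at day 10 (edgeR adjusted p = 0.00027), and its day 8 call was lost within neural progenitor classes. Plxna2, a receptor of class 6 semaphorins, had 10.9 CPM in non-elongated organoids and 14.8, 19.8, 50.3, 62.9 and 34.6 CPM through the elongated ones. It peaked at day 8 (1.87 ± 0.28, edgeR adjusted p = 0.0058) and was still called at day 10 (1.00 ± 0.28, edgeR adjusted p = 0.037), though not within neural progenitor classes alone (edgeR adjusted p = 0.094). With TMM scaling Plxnb1 was called in the line over days only, with 10.0 CPM in non-elongated organoids and 9.61, 9.16, 9.45, 14.0 and 17.0 CPM through the elongated ones (edgeR adjusted p = 0.046). That call was lost whichever elongated library was left out. Library totals alone also called Plxnb1 at day 10. The other plexins and both neuropilins were not called by edgeR over all cells and libraries. Within neural progenitor classes Plxnc1 (day 8), Plxnd1 (day 10) and Nrp2 (day 10 and the line over days) were called, with RLE scaling (size factors of the kind DESeq2 uses) Plxnc1 (day 8) and Plxnd1 (day 10), and without day 6 replicate 1 Nrp1 in the line over days. Nrp1 ranged over 1.04 to 7.05 CPM and Nrp2 over 6.45 to 20.2 CPM.

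The EphA receptors split into a rising and a falling set. Epha3 (chr16:63543534-63864175, minus strand) had 0.0433 CPM in non-elongated organoids and 0.356 and 0.743 CPM at day 6, 1.07 CPM at day 7, 23.1 CPM at day 8 and 73.2 CPM at day 10 in elongated ones. The step came between day 7 and day 8, and the log2 change was 7.02 ± 0.47 at day 10 (edgeR adjusted p = 0.00018). Epha5 had 12.6 CPM in non-elongated organoids and 9.89, 4.04, 3.99, 16.8 and 106 CPM through the elongated ones. Day 7 was at the level of the lower duplicate, day 8 lay above both, and of the later days edgeR called only day 10 (3.93 ± 0.48, edgeR adjusted p = 0.0014). DESeq2 also called Epha5 at day 8, and edgeR called it rising in the line over days. Epha10, an Eph receptor whose kinase is inactive, had 0.332 CPM in non-elongated organoids and 0.342, 0.368, 1.03, 3.19 and 12.9 CPM through the elongated ones (5.18 ± 0.42 at day 10, edgeR adjusted p = 0.00031). Day 10 changes against the lower duplicate alone were 7.61 for Epha3 (replicate 1) and 4.70 for Epha5 (replicate 2). They were smaller against the other duplicate, as replicate 2 over replicate 1 was 1.02 for Epha3 and -1.29 for Epha5 on the log2 scale.

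Epha7, an ephrin-A receptor known from the closing neural tube, had 4.68 CPM in non-elongated organoids and 14.1 and 16.8 CPM at day 6, 171 CPM at day 7, 140 CPM at day 8 and 83.3 CPM at day 10 in elongated ones. It was highest at day 7 (3.47 ± 0.26, edgeR adjusted p = 0.0033), and was called higher on all 3 days. Epha8 showed 1.57 CPM in non-elongated organoids and 1.51, 1.41, 8.15, 1.82 and 2.67 CPM through the elongated ones, called at day 7 alone (2.48 ± 0.39, edgeR adjusted p = 0.017). Epha2 (chr4:141301240-141329384, plus strand), an Eph receptor of early embryonic cells and epithelia, had 57.4 CPM in non-elongated organoids and 16.3 and 27.0 CPM at day 6, 0.496 CPM at day 7, 0.849 CPM at day 8 and 2.09 CPM at day 10 in elongated ones. No later library reached a day 6 value, and the log2 change was -5.45 ± 0.53 at day 7 and -3.37 ± 0.46 at day 10 (edgeR adjusted p = 0.0038 and 0.0024). Epha1 fell beside it, with 22.4 CPM in non-elongated organoids and 8.91, 3.66, 0.822, 0.395 and 0.400 CPM through the elongated ones (-3.97 ± 0.67 at day 10, edgeR adjusted p = 0.0057, and -3.13 against replicate 2 alone), and its day 7 call was lost with library totals alone, without the low-count filter and within neural progenitor classes. Epha4, a receptor of both ephrin classes, was at 83.3 CPM in non-elongated organoids and 92.5, 163, 171, 110 and 87.9 CPM through the elongated ones and was called in no test by either tool (edgeR adjusted p = 0.31 at day 10).

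Among the EphB receptors, Ephb2 had 11.0 CPM in non-elongated organoids and 12.8, 12.8, 21.9, 30.5 and 47.0 CPM through the elongated libraries. Its day 6 duplicates were alike, and it rose by 1.88 ± 0.28 at day 10 (edgeR adjusted p = 0.0033). Ephb4, best known from veins, had 11.0 CPM in non-elongated organoids and 8.15, 10.2, 9.45, 7.62 and 4.07 CPM through the elongated ones, and was lower at day 10 (-1.17 ± 0.36, edgeR adjusted p = 0.049), a call lost within neural progenitor classes (edgeR adjusted p = 0.17), with library totals alone and without the low-count filter. Ephb3 was lower at day 8, at 0.916 CPM. With TMM scaling over all cells, edgeR called the ephrins Efnb3, Efna2 and Efna4 in at least 1 of the 5 tests. Efna1, Efna3, Efna5, Efnb1 and Efnb2 were called in none, where 32.2% of all genes were called in at least 1. Efnb3, a transmembrane ephrin, had 15.4 CPM in non-elongated organoids and 26.1, 16.4, 71.1, 64.5 and 47.7 CPM through the elongated libraries, and was called higher on each day (1.74 ± 0.32 at day 7, edgeR adjusted p = 0.028), the day 7 call being lost within neural progenitor classes. Efna2 had 15.7 CPM in non-elongated organoids and 14.6, 9.35, 17.0, 27.3 and 27.3 CPM through the elongated ones (1.19 ± 0.35 at day 10, edgeR adjusted p = 0.042), also lost within those classes. Efna4 was called falling in the line over days, with 27.5 CPM in non-elongated organoids and 26.6, 24.4, 18.0, 18.9 and 13.4 CPM through the elongated ones (edgeR adjusted p = 0.042). That call was lost without either day 6 duplicate, without day 8 or day 10, with library totals alone and within neural progenitor classes. DESeq2 also called Efna4 at day 10. Efnb1 (46.0 to 70.4 CPM) and Efnb2 (27.8 to 93.1 CPM) were present in every library and not called by edgeR with TMM scaling, while Efnb2 was called at day 7 by DESeq2 and at day 10 with library totals alone.

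In all, 40 members were called in at least 1 of the 5 tests and 26 in none, where 32.2% of all 16379 genes were called in at least 1; 6 of the called members stayed under 5 CPM in every library. Exons of 8 members (Efna3, Efna4, Epha1, Ephb4, Ntn5, Plxna1, Plxnb1 and Unc5c) overlap a gene on the opposite strand that is also in the tables, and whether the counting used strand is not given in the sources used here, so their values are uncertain.

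At day 6 the question is how organoids that stayed short differ from those that lengthened. None of the 66 members was called (edgeR, 0.0% of all genes called), and 11 had an unadjusted p under 0.05, as did 1137 of all 16379 genes. The non-elongated library lay above both elongated duplicates for 26 members and below both for 26, where 34.2% of all genes lay above and 33.8% below. Among the members with the largest differences from both duplicates, Epha2 had 57.4 CPM in non-elongated organoids, against 16.3 and 27.0 CPM in elongated ones (log2 change 1.40 ± 0.37, edgeR adjusted p = 0.40). Epha1 had 22.4 CPM against 8.91 and 3.66 CPM (1.84 ± 0.50, edgeR adjusted p = 0.41), and Epha7 had 4.68 CPM against 14.1 and 16.8 CPM (-1.72 ± 0.29, edgeR adjusted p = 0.20). Unc5b had 14.4 CPM in non-elongated organoids, against 5.27 and 3.24 CPM in elongated ones, and Sema6a 32.0 CPM, against 16.9 and 9.77 CPM (log2 changes 1.76 and 1.27). Robo2 had 1.27 CPM in non-elongated organoids, against 9.09 and 4.05 CPM (-2.37 ± 0.56, edgeR adjusted p = 0.34). Plxna2 and Efna5 were lower by smaller margins, at 10.9 CPM against 14.8 and 19.8 CPM and at 19.5 CPM against 36.0 and 29.8 CPM. DESeq2 called 4 members here, Epha2 higher and Epha3, Epha7 and Robo2 lower, where 1.03% of the 12568 genes to which it gave an adjusted p were called (0.477% higher and 0.549% lower). Beside the higher members, epiblast markers summed to 487 CPM in non-elongated organoids, against 207 and 212 CPM in the duplicates, and epithelial markers to 1000 CPM, against 282 and 152 CPM.

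The authors' classes of the day 6 table place these values. Caudal epiblast made up 45.6% of cells in the non-elongated library and 18.2% in elongated replicate 1. Hindbrain made up 22.7% and 35.6%, and spinal cord 7.96% and 24.4%. The part of these shares in the library differences was not tested. In the caudal epiblast class Epha2 had 70.2 CPM in the non-elongated library, against 31.6 CPM in elongated replicate 1, and in the hindbrain class 57.7 CPM, against 15.4 CPM. Epha1 had 29.2 CPM against 19.0 CPM in caudal epiblast and 12.1 CPM against 3.1 CPM in hindbrain. Both receptors were thus higher in non-elongated cells of either class, while caudal epiblast had the highest Epha2 level of the classes in each library. In the spinal cord class Robo2 had 4.39 CPM in non-elongated cells, against 25.5 CPM in elongated ones, the highest of the elongated classes at day 6. In the hindbrain class Epha7 had 7.87 CPM in non-elongated and 22.8 CPM in elongated cells. Each is 1 library against 1, with no test.

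At day 10, dorsal interneurons carried most UMIs of Dcc, Robo1, Robo2 and Robo3, and of some other members. The 3 dorsal interneuron classes (dI1, dI2 and dI3, the dorsal neurons of the spinal cord, of which dI1 and dI2 include commissural neurons in the embryo) made up 0 of 2402 cells in elongated day 6 replicate 2, 15 of 2565 at day 7, 272 of 3337 at day 8 and 1176 of 3677 at day 10. At day 10 they held 28.0% of all UMIs, 91.5% of those of Robo3, 75.2% of Robo2, 70.6% of Robo1 and 64.9% of Dcc. Among the other named members the share ran from 4.70% for Slit3 to 72.9% for Plxna4, with 65.9% for Sema6c. High shares were thus not particular to Dcc and the Robos. Neuron markers summed to 9030, 11147 and 13800 CPM in dI1, dI2 and dI3, and to 365 CPM in the mid/hindbrain class. Values per class are CPM of the class total without TMM scaling, with exact Poisson intervals that cover counting error only. Since the classes came from these cells, one class against another is a description with no test.

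Dcc was highest in dI2 at 511 CPM (95% interval 495 to 528), with 426 CPM in dI1, 306 CPM in dI3, 180 CPM in dP2/3 and 48.6 CPM in mid/hindbrain. Robo3 was more restricted, with 282 CPM in dI2, 100 CPM in dI1, 60.4 CPM in dI3 and 0.784 to 3.07 CPM in the progenitor, spinal cord, mid/hindbrain and neural crest classes, apart from the class of proliferative neural progenitors. That class had 46.7 CPM of Robo3 and 238 CPM of Dcc, and its neuron markers summed to 2989 CPM. Robo1 had 194 CPM in dI1, 174 CPM in dI2 and 132 CPM in dI3. Robo2 was highest in dI3 (108 CPM, against 21.3 CPM in dI1 and 8.59 CPM in dI2), as was Plxna4 (115 CPM, against 3.01 CPM in dI1 and 46.4 CPM in dI2). Of the 3 neuron classes, dI3 was thus highest in Robo2 and Plxna4, dI2 in Robo3 and Epha10 (46.2 CPM), and dI1 in Epha5 (409 CPM, against 163 CPM in dI2 and 105 CPM in dI3). At day 8 the order of Dcc was 479 CPM in dI3 and 349 CPM in dI2, and that of Robo3 was 177 CPM in dI2 and 116 CPM in dI3.

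UMIs of Dcc and Robo3 were also counted cell by cell. With each cell thinned to 5000 UMIs, Dcc was seen in 86.1% of dI2 cells (exact binomial 95% interval 82.2 to 89.4%), 79.3% of dI1 and 67.6% of dI3 cells, and Dcc and Robo3 together in 51.9% of dI2 (46.7 to 57.0%), 23.0% of dI1 and 15.8% of dI3 cells. In mid/hindbrain cells the shares were 18.9% for Dcc and 0.193% for both. In pre-EMT cranial neural crest cells Dcc was seen in 6.67% and Robo3 in 0 of 255 cells, which allows up to 1.18% of cells with a UMI at that depth; unthinned, 33.7% of these cells had a UMI of Dcc, 3.14% one of Robo3 and none of the 255 both. Median depths before thinning were 18496.5 UMIs per cell in dI2 and 28865 in that crest class, and unthinned shares with both receptors were 74.6% of dI2, 44.1% of dI1, 33.0% of dI3 and 1.64% of mid/hindbrain cells. No doublet caller was run and the part of free RNA was not tested, so these are shares of cells with UMIs and not of cells that express both genes.

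**Figure D3:**
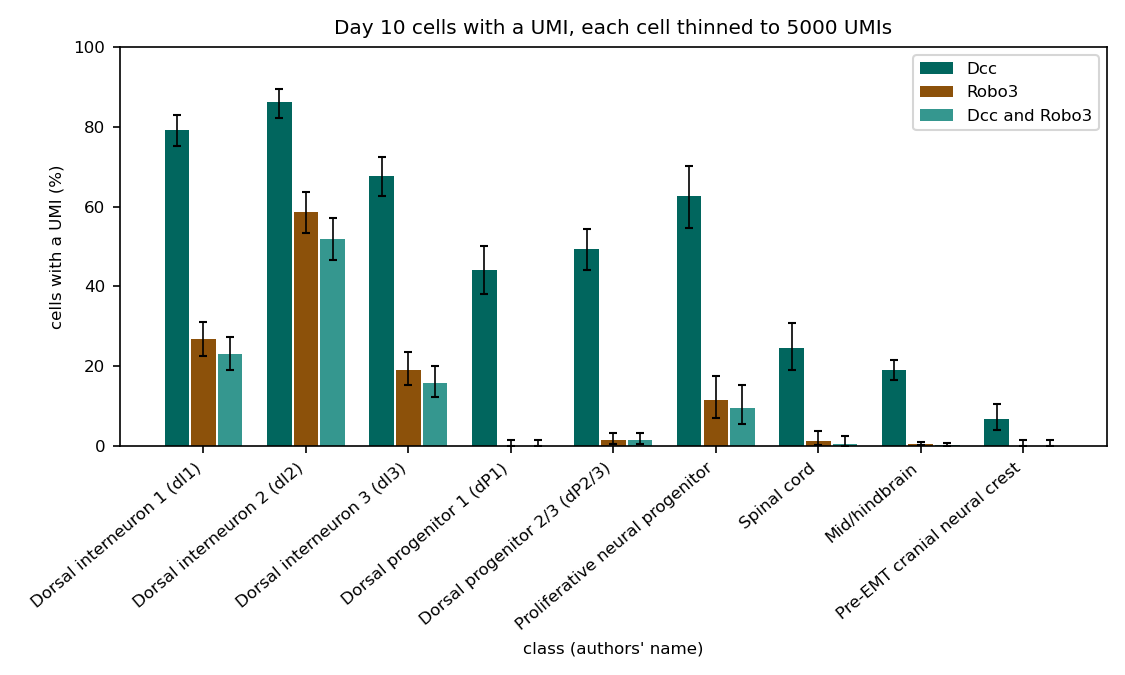
Share of day 10 cells with a UMI of Dcc, of Robo3 and of both, in 9 of the authors' classes, each cell thinned to 5000 UMIs; bars give percent of cells and whiskers exact binomial 95% intervals. Cells with UMIs of both are most frequent in dI2 (51.9%), and Robo3 alone is near 0 in the classes right of the proliferative progenitors.

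Other members were highest in classes that the authors named as progenitors or neural crest. Of the 39 members named here, 14 were highest in an interneuron class at day 10 and 7 in the dP1 class. As 34 of the 39 were named because a test called them, these counts depend on that choice. The share over all genes was not computed. Neuron markers summed to 2592 CPM in dP1, above its progenitor markers (2308 CPM), and to 2046 CPM in dP2/3, where progenitor markers summed to 5436 CPM. Epha5 (411 CPM) and Sema6a (158 CPM) were highest in dP1, where dI1 cells had 409 and 155 CPM. Epha3 and Epha4 were highest in dP2/3 at 193 and 201 CPM, with 112 and 134 CPM in dI2 but 29.0 and 23.7 CPM in dI1. Plxna2 was also highest in dP2/3 (85.9 CPM). Epha7 and Unc5c were highest in mid/hindbrain cells, at 169 and 106 CPM, and Unc5c was at 4.34 CPM in dI1. Slit2 was highest in the pre-EMT vagal/trunk neural crest class (316 CPM; in neural crest work EMT usually stands for the epithelial to mesenchymal transition), followed by the pre-EMT cranial class (170 CPM) and dI2 (151 CPM), and Slit1 and Slit3 were also highest in these crest classes (69.1 and 21.3 CPM). Efnb1 was highest in pre-EMT cranial crest (147 CPM). The names of the pre-EMT classes are the authors': the 8 neural crest markers summed to 114 and 90.5 CPM in the cranial and vagal/trunk classes, against 248 CPM in mid/hindbrain and 1269 CPM in migratory cranial crest, so the list goes against these names. Migratory cranial crest had 116 CPM of Robo1 and 69.4 CPM of Efna5, from 56 cells.

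**Figure D4:**
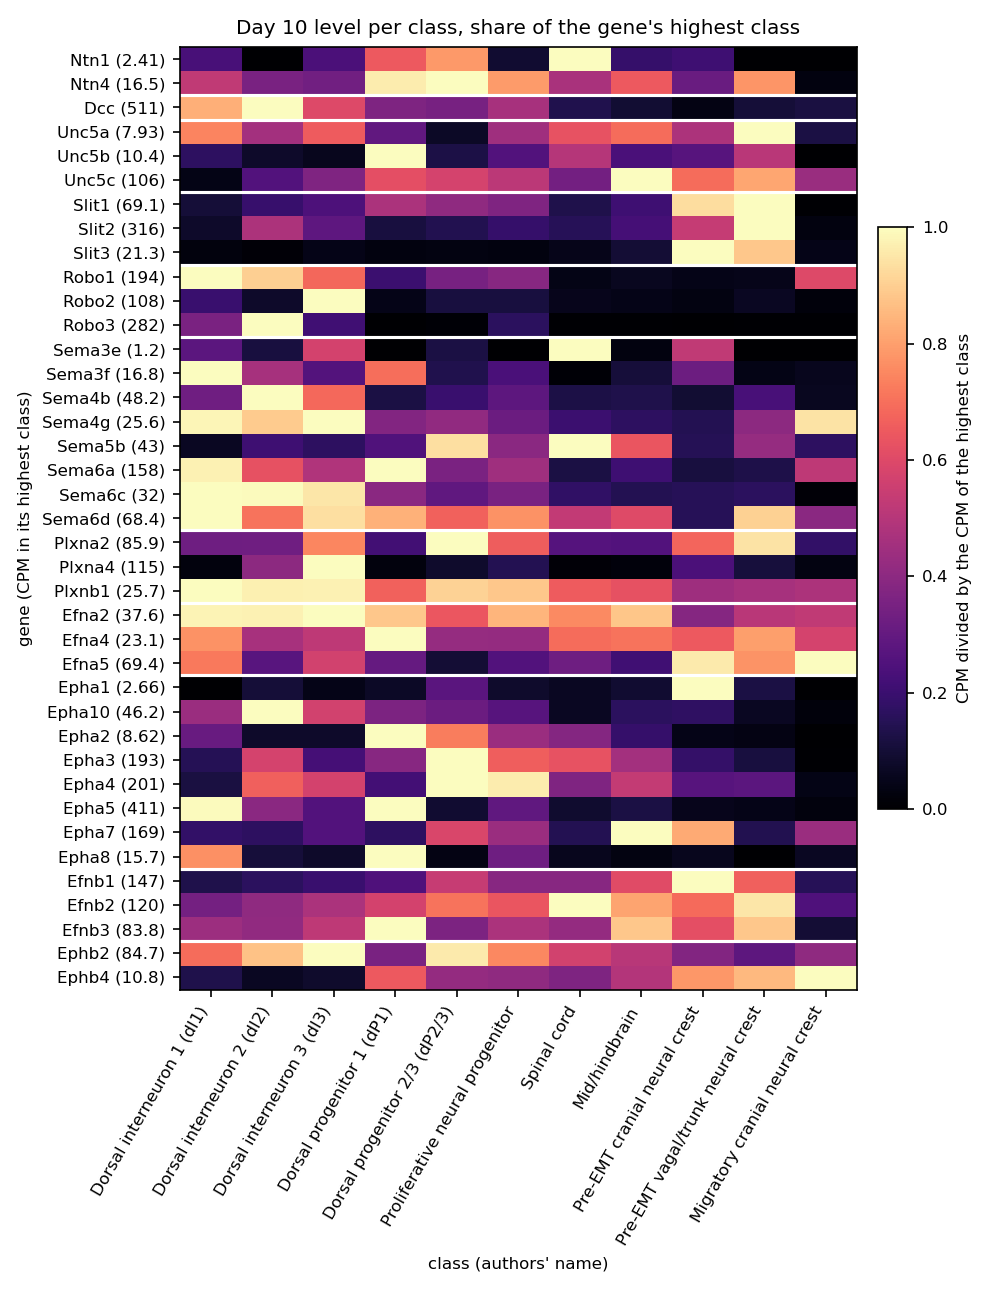
Level of the 39 named members in each of the authors' day 10 classes, as the CPM divided by that of the gene's highest class, which is printed beside its name. Of the interneuron columns at the left, Robo3 and Epha10 are brightest in dI2, and Robo2 and Plxna4 in dI3. Epha7 and Unc5c are bright in mid/hindbrain, and the Slits in the pre-EMT crest columns.

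Part of the change over days was seen under a single class name, mid/hindbrain. That class held 90.5% of cells in elongated day 6 replicate 2, 82.2% at day 7, 52.3% at day 8 and 28.1% at day 10. Elongated replicate 1, classed in the day 6 table, had 18.2% of cells in caudal epiblast, 9.54% in anterior epiblast and 7.23% in surface ectoderm. No class of replicate 2 bears those names, and whether mid/hindbrain holds like cells on each day was not tested. The mid/hindbrain class was followed from elongated day 6 replicate 2 to day 10 in the table that uses these names, with neuron markers at 222, 132, 190 and 365 CPM over days 6, 7, 8 and 10. Its progenitor markers summed to 551, 1490, 3589 and 4782 CPM and its epithelial markers to 118, 22.2, 9.15 and 8.70 CPM over the same days, and their part in the values below was not tested. Within it Unc5c had 0.874 CPM at day 6, 33.4 CPM at day 7, 49.7 CPM at day 8 and 106 CPM at day 10. Epha7 had 16.6, 191, 202 and 169 CPM over the same days, so its level at day 10 was closer to its peak in this class than in the whole library. Epha3 went through 0.72, 0.82, 21.6 and 87.9 CPM, and Slit2 through 4.17, 25.8, 34.1 and 70.7 CPM. Epha2 went through 26.7, 0.376, 0.786 and 1.64 CPM and Ntn1 through 19.7, 2.92, 1.95 and 0.452 CPM, low from day 7 on as in the library sums. Robo3 stayed low, at 0.219, 0.00917, 0.272 and 1.95 CPM, and Dcc had 4.78, 6.85, 18.5 and 48.6 CPM. These are single libraries with no test. The day 10 test was repeated on neural progenitor classes, which differ between the deposited tables. For the day 6 table they were midbrain, hindbrain and spinal cord. For the other they were mid/hindbrain, spinal cord, proliferative neural progenitor, dP1 and dP2/3. In elongated day 6 replicate 2, dP2/3 had 1 cell and the proliferative and dP1 classes were absent. The proliferative and dP1 classes also held neuron markers at day 10, so this fit does not compare like classes. It called 21 members higher and 8 lower, where 17.1% of all 15789 genes in that fit were called (8.85% higher and 8.24% lower). Of the member calls, 25 were shared with the sums over all cells. There Robo1 kept a log2 change of 1.51 (edgeR adjusted p = 0.018) and Robo3 one of 5.03 (edgeR adjusted p = 0.0026), against 2.75 and 7.44 over all cells, while Unc5c (6.09) and Epha3 (7.40) had larger changes than over all cells.

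**Figure D5:**
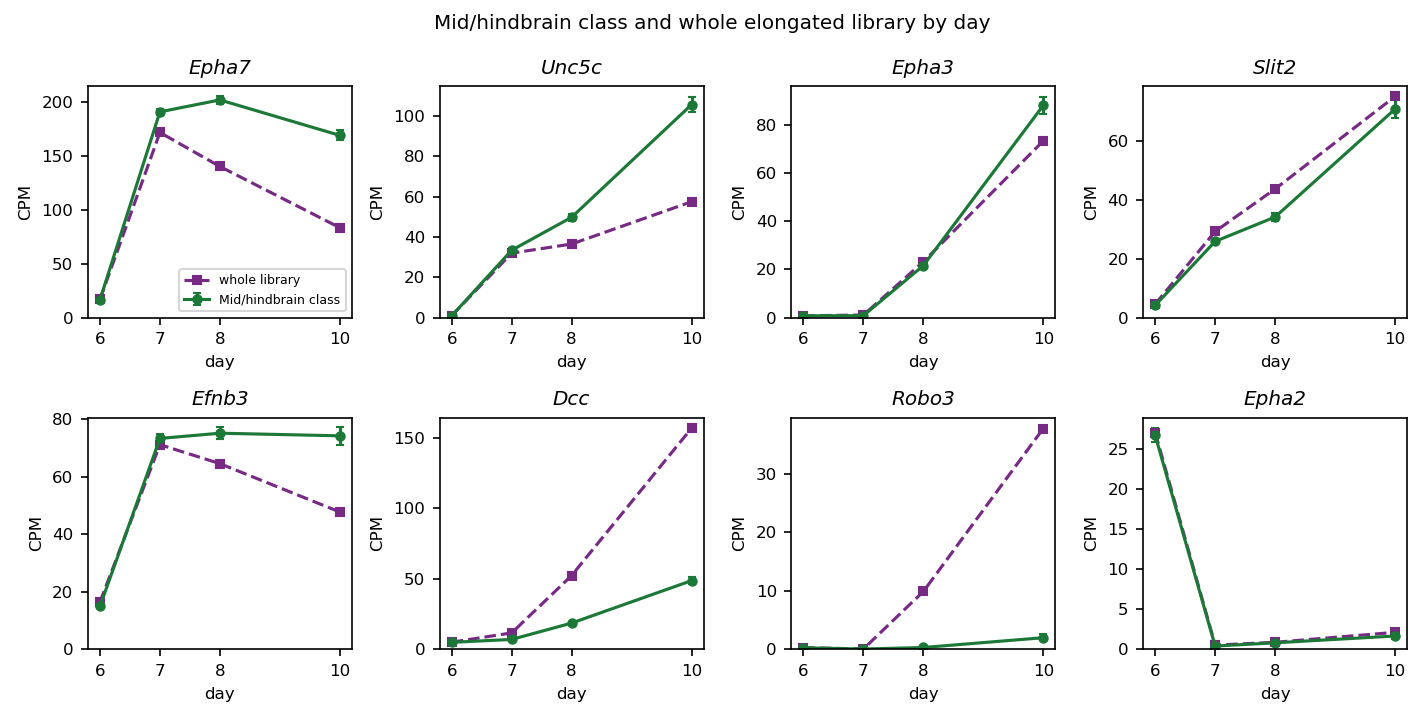
CPM of 8 members by day in the authors' mid/hindbrain class (circles, exact Poisson 95% intervals, no TMM scaling) and in the whole elongated library (squares, TMM-scaled), from replicate 2 at day 6 to day 10. The lines part for Dcc and Robo3 (48.6 and 1.95 CPM in the class at day 10, 157 and 37.8 CPM in the library) and for Epha7 and Unc5c, where the class is higher.

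Other genes of the guidance pathway, 56 co-receptors, cues and cytoplasmic effectors outside the families, were measured beside the members. At day 10, 28 of them were higher and 5 lower than at day 6, with a median log2 change of 1.01, where 14.1% of all genes were higher and 12.3% lower. At day 7, 6 were higher and 0 lower, against 1.9% and 2.09% of all genes, and at day 8, 21 and 4, against 6.74% and 6.64%. The list was chosen with earlier results of these data known, so these counts depend on that choice and are a description. Adhesion proteins of growing axons were among the pathway genes that rose. Cntn2, a surface protein of commissural axons, had 89.0 CPM at day 10, against 0.370 and 0.304 CPM in the day 6 duplicates (8.05 ± 0.37, edgeR adjusted p = 8.5e-05), and Chl1 had 20.4 CPM against 1.20 and 0.870 CPM. Among growth cone effectors, Gap43 had 360 CPM at day 10, against 33.6 and 22.1 CPM, Dpysl3 256 CPM against 9.54 and 9.86 CPM, and Rnd2 366 CPM against 21.7 and 34.9 CPM. The collapsin response mediators Crmp1, Dpysl2, Dpysl4 and Dpysl5 were higher by log2 changes of 2.16, 1.71, 3.75 and 1.22. Srgap1 and Srgap3, which act downstream of Robo receptors, were higher by 3.81 and 3.08. Draxin, a netrin-binding cue that repels commissural axons, rose by 4.72 to 36.0 CPM, and Rgmb by 2.68 to 65.9 CPM, while Rgma, a ligand of neogenin, had 23.8 CPM at day 10, against 49.0 and 56.0 CPM (-1.14 ± 0.27, edgeR adjusted p = 0.022). Adgrl3, Cxcr4, Pak3, Vav3, Fyn, Chn1, Adam10, Evl and Enah were also higher (log2 changes 0.97 to 4.11), and Vasp and Cxcl12 lower (-1.25 and -1.65). The netrin receptor Neo1, at 39.7 CPM at day 10, against 28.2 and 27.0 CPM at day 6, was not called at day 10 (edgeR adjusted p = 0.17).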

How the data were processed

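Single-cell RNA was measured in 6 libraries made with the 10x Genomics 3 prime kit after dissociation with TrypLE, per the labels' protocols. The submitters' processing notes name Cell Ranger 3.1 and build mm10. The authors deposited 2 tables of raw, unscaled UMI counts for every gene in every cell. Their metadata give the mitochondrial share of each cell in percent and the deposited class and library names, symbols and barcodes, which carry no unit (other). Non-elongated organoids and elongated replicate 1 came in the day 6 table, and the other libraries in the second. How the authors filtered cells, removed doublets and named classes is not given in the sources used here. The day 6 table calls its libraries NENT and SENT, read here as non-elongated and elongated.

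UMIs were summed per library over the 17296 symbols in both tables and tested with edgeR 4.0.16 in R 4.3.3: a filterByExpr threshold of 10 counts (16379 genes kept), TMM scaling, a quasi-likelihood fit of 5 group means (1 residual degree of freedom) or of a line over day with a term for the non-elongated library (3), and Benjamini-Hochberg adjustment at 0.05 over all genes. A lone library is assumed to vary as the day 6 duplicates do, whose spread was 29.5% as a coefficient of variation. SE was obtained from each log2 change and its F statistic. DESeq2 1.42.0 was an alternative. The fit was also run on simulated counts as a check of the code, and no result given here rests on that run.

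Named with values are called members with at least 5 CPM in their highest library, the 4 highest and 4 lowest in the non-elongated comparison among members at 5 CPM or more with the same sign against each duplicate, and uncalled members that reach 50 CPM. Pathway genes are given with values where called with at least 20 CPM. The members and lists were chosen with earlier results of these data known. Classes need at least 50 cells. Intervals cover counting error only. Gene positions are from GENCODE M21 (GRCm38).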

Additional observations from a re-analysis of the deposited data

Results flagged for a closer look

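Among these families 3 further genes stood only in the table of elongated replicate 2 and the later days, so they entered no comparison. Epha6 reached 0.223 CPM at day 10 (20 UMIs), where elongated day 6 replicate 2 had 0 UMIs. Ntn3 reached 2.79 CPM at day 8 and 2.75 CPM at day 10, against 1.34 CPM in that day 6 library. Plxnb3 reached 0.0668 CPM at day 10 (6 UMIs), with 0 UMIs at day 6. These CPM values are without TMM scaling, from 1 library per day, and were not tested.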

How the results depend on the processing

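Over the 91 pairs of a member and a test that called it, members under 5 CPM included, 0 of 696 values under the alternatives run had the opposite sign. The counts of called members that moved by over 1.5 times were these. For the non-elongated comparison DESeq2 called 4 members (1.03% of all genes), against 0 with edgeR. At day 7 the neural progenitor classes alone gave 8 calls (2.5% of all genes), against 16. For the line over days DESeq2 gave 32 calls (36.4% of all genes), against 20, and leaving out an elongated library gave 4 to 19 calls. Of the 14 calls made without the day 10 library, 7 were shared with the full fit. Day 8 and day 10 counts stayed within 21 to 26 and 29 to 34 calls. Library totals alone shifted the median log2 change of all genes to 0.24 at day 10, 0.13 at day 8 and 0.11 at day 7, so changes on that scale are to be read relative to these. Over the named members, 581 of 689 values under alternatives kept their direction and call, 77 lost a call, 3 gained one and 28 moved. Without a day 6 replicate the day comparisons have no residual degrees of freedom and give values alone: Dcc at day 10 was then 7.77 without replicate 2, against 5.78. Without replicate 1 it was lower than with both. No paired analysis was possible because only elongated day 6 has more than 1 library, so the groups share fewer than 2 replicate numbers. Genes near the floor of 3 UMIs per library, such as Robo3 at day 7, are limited by depth.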
